A study of Arabidopsis thaliana with 6 samples.

Results

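The plastid chromosome of Arabidopsis thaliana holds genes for its own RNA polymerase, and this account covers those genes together with accD, clpP and matK. They were taken as every probe set with 1 listed gene whose gene lies on the plastid chromosome and whose symbol starts with rpo or clpP, or is accD or matK. The rule gave 7 probe sets for 7 genes (rpoA, rpoB, rpoC1, rpoC2, accD, clpP and matK), out of 69 plastid-encoded genes measured and 22746 probe sets tested. Leaf RNA of the mutant pam48, also named mterf6-1, was compared with leaf RNA of the wild type, with 3 Affymetrix arrays of each. Both genotypes are in the Col-0 accession. Leaves of equal age came from soil-grown greenhouse plants at the stage of 8 rosette leaves, in a cycle of 16 h of light and 8 h of dark, and no group had a treatment. The name mterf6-1 refers to MTERF6, of the mTERF family of nuclear-encoded proteins that bind nucleic acids in organelles. The labels do not give the kind of mutation or the number of independent lines, and pam48 is a single allele.

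Chloroplast genes are read by a bacterial-type polymerase, whose core subunits are made in the plastid, and by phage-type polymerases made from nuclear genes. The core subunits are alpha (rpoA), beta (rpoB), beta prime (rpoC1) and beta double prime (rpoC2). In plastids that lack the bacterial-type enzyme, transcripts of accD and of the unit that holds rpoB, rpoC1 and rpoC2 still accumulate, so these genes are known as genes read by the nuclear-encoded polymerase. In contrast, rpoA lies in a cluster with ribosomal protein genes, and matK lies inside the intron of a transfer RNA gene for lysine. The proteins of the other members act after transcription: accD encodes a carboxyltransferase subunit of the acetyl-CoA carboxylase of fatty acid synthesis, clpP a proteolytic subunit of the Clp protease, and matK a maturase that binds group II introns.

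All values are log2 RMA summaries of a probe set, and a change is the pam48 mean minus the wild-type mean, given with its standard error (limma, 3 arrays per genotype). A probe set was called at a Benjamini-Hochberg adjusted p under 0.05 over all 22746 probe sets. The main fit did not pair the arrays by replicate number. The array medians lay between 6.38 and 6.55 on this scale. No probe set was named for MTERF6 (AT4G38160), so the mutated gene was not analysed by name. Of 6 markers of leaf mesophyll 2 had a probe set, psbA and rbcL, which stood between 10.12 and 11.53 on all arrays. Both are among the plastid-encoded genes compared here, so they give no separate check of the leaf label. Of 13 markers of root, shoot apex, guard cells, phloem and dividing cells 5 were measured, and limma called 0 of them, with 2 at an unadjusted p under 0.05 (CLV3 at −0.31 ± 0.11 and FMA at −0.41 ± 0.13). PYK10, a root gene, read 5.56, 9.74 and 7.29 in pam48 and 8.51, 5.21 and 5.19 in wild type. Where bulk leaf RNA is compared, fewer plastids or cells and less RNA per cell cannot be told apart.

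All 7 probe sets had a higher mean signal in pam48, and the sizes of the differences spread widely. How well the labelling takes up plastid RNA was not examined. The largest was that of rpoC1, 4.90-fold, which was also the largest among the 69 plastid-encoded genes, and it lay just outside the threshold. The only call was accD, which rose 1.87-fold. The alpha and beta subunit genes rpoA and rpoB had the smallest differences of the 7. In all, limma called 1 of 7 members higher and 0 lower, where 0.598% of all probe sets and 11.6% of the plastid-encoded genes were called higher. The unadjusted limma p was under 0.05, with a higher mean in pam48, for 5 of 7 members, against 6.79% of all probe sets and 46.4% of the plastid-encoded genes. The median change was 0.90 over the 7 members, 0.37 over the 69 plastid-encoded genes and −0.03 over all probe sets. Members, plastid genes and all probe sets share the same arrays, and nothing particular to the members was tested by these shares.

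**Figure D1:**
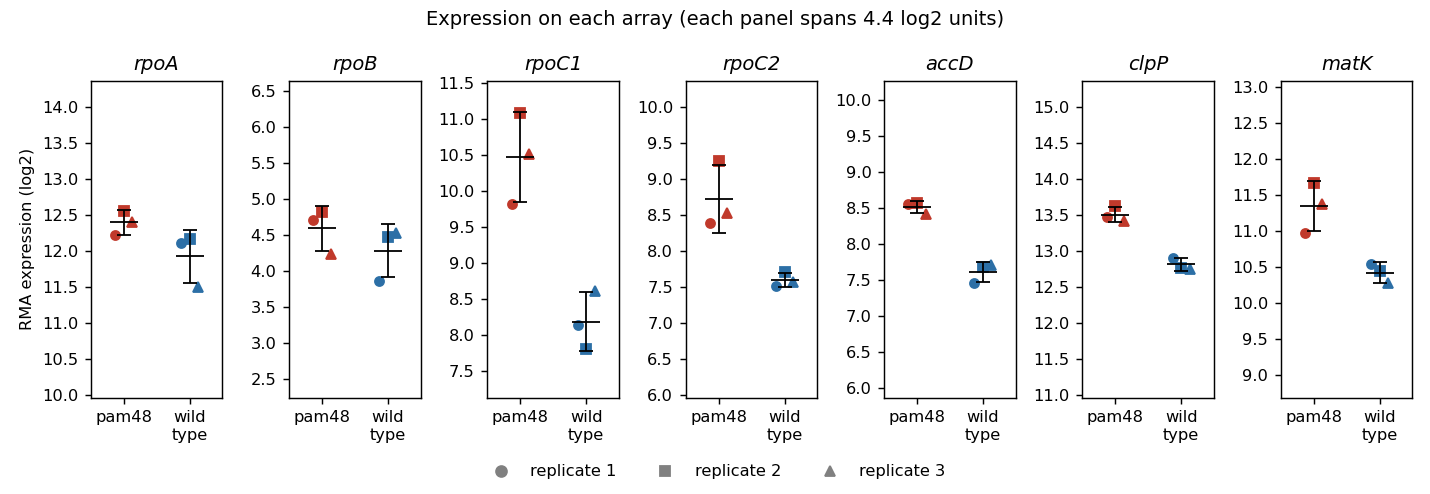
Log2 RMA expression of the 7 genes on each array, pam48 in red and wild type in blue, with mean and SD as black lines and 1 marker shape per replicate number. All panels span the same range, so that the step of rpoC1 (10.47 against 8.18) can be set beside those of rpoA (12.39 against 11.92) and rpoB (4.60 against 4.29).

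Among the polymerase genes, rpoC1, which encodes the beta prime subunit, read 9.82, 11.08 and 10.51 on the pam48 arrays and 8.13, 7.80 and 8.61 on the wild-type arrays. Every pam48 array lay above every wild-type array, by at least 1.21, and the replicates of both genotypes were widely spread. The change was 2.29 ± 0.35, with a 95% interval from 1.45 to 3.13 and a limma adjusted p of 0.0508. When arrays were blocked by replicate number the same change had a limma adjusted p of 0.0417. Expressed against the median plastid transcript of each array, the change was 2.0, with a limma adjusted p of 0.0170. On that scale rpoC1 was 1 of 3 plastid genes called, beside rpl20 (1.80 ± 0.26), which encodes a protein of the large ribosomal subunit, and ycf3 (1.75 ± 0.25), an assembly factor of photosystem I.

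The beta double prime gene rpoC2 read 8.39, 9.26 and 8.53 in pam48, against 7.52, 7.71 and 7.57 in wild type. The genotypes did not overlap, and pam48 replicate 2 stood above the other mutant arrays. The change was 1.13 ± 0.23, which is 2.18-fold, with a limma adjusted p of 0.108. Blocking on the replicate number gave it a limma adjusted p of 0.0447.

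The beta subunit gene rpoB read 4.72, 4.83 and 4.24 in pam48 and 3.87, 4.48 and 4.54 in wild type, so that the genotypes overlapped. Its probe set was dim: 27.8% of all probe sets had a lower mean, and it was the only member among the dimmest 40%. The change was 0.30 ± 0.24, with a 95% interval from −0.26 to 0.86 and a limma adjusted p of 0.634. On the fold scale the interval ran from 0.834 to 1.82. Signal over background was not examined.

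For rpoA, the alpha subunit gene, the values were 12.22, 12.55 and 12.39 in pam48 and 12.10, 12.16 and 11.49 in wild type. The groups were separated by only 0.06, and wild type replicate 3 lay well below the other arrays. The change was 0.47 ± 0.20, with a 95% interval from −0.02 to 0.96 and a limma adjusted p of 0.391. Without wild type replicate 3 it was 0.26. The probe set is bright, with 98.7% of all probe sets below its mean.

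The carboxylase gene accD read 8.56, 8.58 and 8.42 in pam48, against 7.46, 7.68 and 7.72 in wild type. The mutant arrays were close together and all lay above the wild-type arrays, by at least 0.70. It rose by 0.90 ± 0.12 (95% interval 0.62 to 1.18, limma adjusted p = 0.0362). When 1 array was left out, the change stayed between 0.82 and 0.95, but the call held in only 1 of 6 fits, that without pam48 replicate 1. Against the median plastid transcript of each array the change was 0.61, and it was not called (limma adjusted p = 0.362).

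The protease gene clpP read 13.47, 13.63 and 13.42 in pam48 and 12.91, 12.77 and 12.76 in wild type. The genotypes did not overlap, and the replicates of each differed little. The change was 0.69 ± 0.11, or 1.62-fold, with a limma adjusted p of 0.0541, just past the threshold.

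The maturase gene matK read 10.97, 11.67 and 11.37 in pam48, against 10.54, 10.44 and 10.27 in wild type. These values did not overlap either, and the mutant arrays were more spread than the wild-type ones. The change was 0.92 ± 0.19, or 1.89-fold, with a limma adjusted p of 0.114. In size it was close to that of accD, and its standard error was larger.

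Altogether 6 of the 7 members had all pam48 arrays above all wild-type arrays, where this held for 9.14% of all probe sets and for 52.2% of the plastid-encoded genes. A positive change was found in 7 of 7 members, in 87.0% of the plastid-encoded genes (60 of 69) and in 44.7% of all probe sets. The plastid median, taken as the difference of each array from the wild-type mean, was 0.25, 0.63 and 0.31 on the pam48 arrays. Replicate 2 was the highest mutant array for all 7 members as well, with differences from 0.53 for rpoB to 2.90 for rpoC1. The same array had the widest 3′ minus 5′ difference of the actin control, 2.75 against 1.66 and 1.75 on the other pam48 arrays and 1.60 to 2.01 in wild type. For the GAPDH control it was also widest, 0.82 against 0.12 to 0.47 on the other arrays. For the ubiquitin control it was widest by little, 0.96 beside 0.93 on wild type replicate 3. Its PYK10 value was the highest of the 6. The control probe set of 25S ribosomal RNA read 11.15, 11.56 and 11.60 in pam48 and 11.19, 11.11 and 11.14 in wild type. The part of the control and PYK10 values in these changes was not tested. Without pam48 replicate 2 the changes were 0.39 for rpoA, 0.18 for rpoB, 1.99 for rpoC1, 0.86 for rpoC2, 0.87 for accD, 0.63 for clpP and 0.75 for matK. Limma then called 0 of the 7, with 5 at an unadjusted p under 0.05. In the same fit it called 12 of all 22746 probe sets and 1 of the 69 plastid-encoded genes. Their shares at an unadjusted p under 0.05 were not taken in that fit, so nothing particular to the members is read from the 5.

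**Figure D2:**
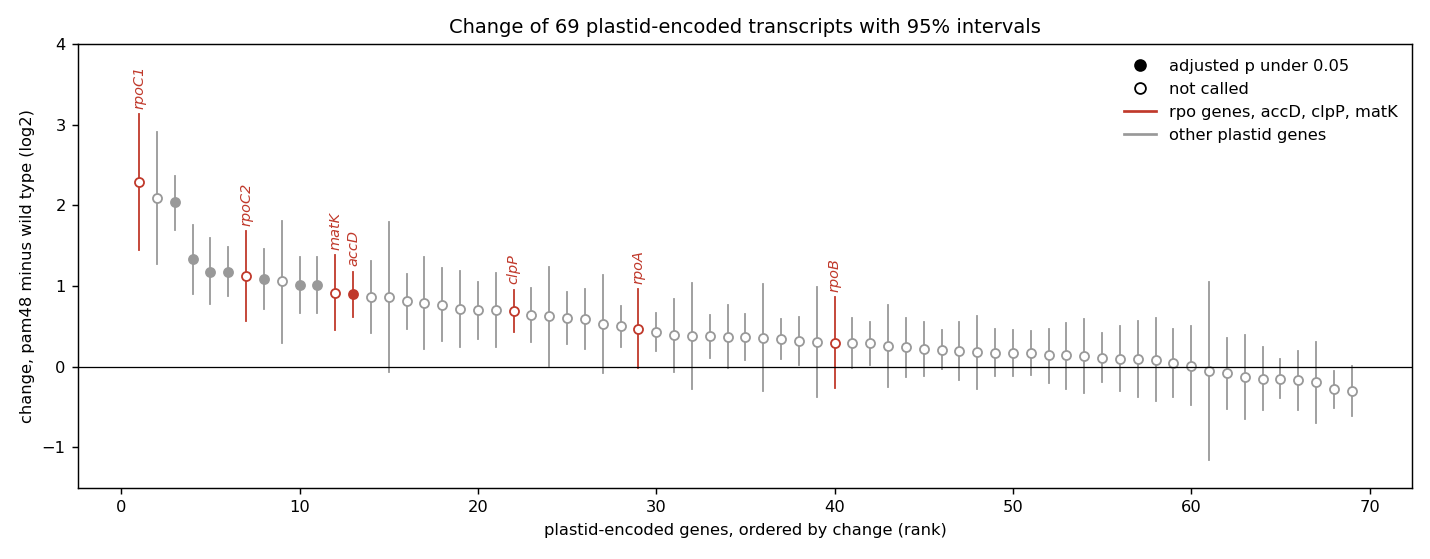
Change of the 69 plastid-encoded genes, pam48 minus wild type on the log2 scale, ordered by size, with 95% intervals from limma; filled points were called. The 7 members, in red, take ranks 1 (rpoC1), 7 (rpoC2), 12 (matK), 13 (accD), 22 (clpP), 29 (rpoA) and 40 (rpoB).

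The next comparison set the genes known to be read by the nuclear-encoded polymerase (rpoB, rpoC1, rpoC2 and accD) against rpoA and matK. For each pair the within-array difference was compared between the genotypes, over 8 pairs. The pair of rpoC1 and rpoA differed most: relative to the wild-type mean, their difference was 1.34, 2.27 and 1.86 on the pam48 arrays and −0.23, −0.62 and 0.85 on the wild-type arrays. The change of rpoC1 thus exceeded that of rpoA by 1.82 ± 0.52, and that of matK by 1.37 ± 0.34 (SE of the within-array difference, n = 3 per genotype). The change of rpoC2 exceeded that of rpoA by 0.66 ± 0.27. In these 3 pairs the genotypes did not overlap, with an exact permutation p of 0.1 each (two-sided), the smallest that 3 against 3 arrays allow, and 0.267 after adjustment over the 8 pairs. This test permutes the arrays freely and leaves out the pairing by replicate number. Within same-numbered arrays all 3 differences were positive in each of these pairs of genes, with an exact sign-flip p of 0.25 each (two-sided, chosen after seeing the data), the smallest that 3 pairs of arrays allow.

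In the other 5 pairs the genotypes overlapped. The change of accD differed from that of matK by −0.02 ± 0.26 and from that of rpoA by 0.43 ± 0.29. The change of rpoC2 was above that of matK by 0.21 ± 0.16. The change of rpoB was below those of both genes, by −0.17 ± 0.42 against rpoA and −0.62 ± 0.38 against matK, and the exact permutation p of the 5 pairs lay between 0.2 and 0.9. Of the 7 members, rpoC1 had the largest change and rpoB the smallest, and both belong to the same unit.

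The mean of rpoB, rpoC1, rpoC2 and accD minus that of rpoA and matK, as a difference from wild type, was 0.52, 0.57 and 0.29 on the pam48 arrays and −0.33, −0.14 and 0.47 on the wild-type arrays. The genotypes overlapped, as wild type replicate 3 lay above pam48 replicate 3. The pam48 mean was 0.46 ± 0.15 and the wild-type mean 0.00 ± 0.42 (SD, n = 3). Without the dim rpoB the values were 0.70, 0.89 and 0.64 in pam48 and −0.25, −0.20 and 0.45 in wild type. The genotypes did not overlap in this second score. It leaves out the gene whose change was below those of both rpoA (−0.17) and matK (−0.62). The lack of overlap thus rests on the removal of rpoB, and nothing is concluded from it. No p is given for these scores.

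**Figure D3:**
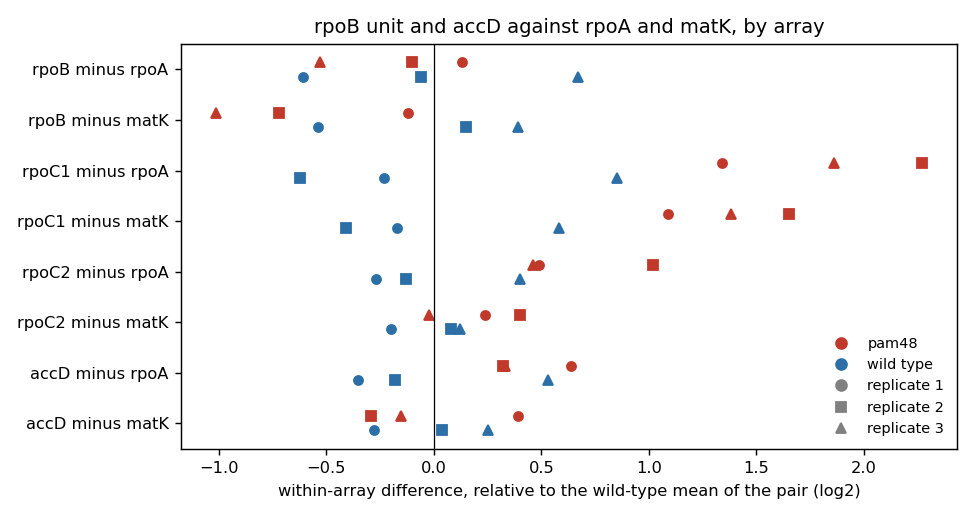
Within-array difference of each pair of genes on the log2 scale, relative to its wild-type mean, pam48 in red above wild type in blue, 1 marker shape per replicate number. The pam48 arrays lie apart from the wild-type arrays for rpoC1 against rpoA and matK and for rpoC2 against rpoA, and the genotypes overlap in the other 5 pairs.

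Of the wider lists of genes known to be read by each polymerase, 5 of 7 for the nuclear-encoded enzyme were measured, the fifth being rpl32, a ribosomal protein gene with a change of 0.32 ± 0.13. All 5 had positive changes, with a median of 0.90, and 1 was called. All 10 genes listed for the plastid-encoded enzyme were measured, with a median of 0.22, 8 positive changes and 0 calls by limma. The unadjusted limma p was under 0.05, with a higher mean in pam48, for 4 of the 5 and for 3 of the 10. This held for 46.4% of the plastid-encoded genes and 6.79% of all probe sets. Changes were positive in 87.0% of the plastid-encoded genes and 44.7% of all probe sets, and 11.6% and 0.598% were called higher. The difference between the lists was not tested. The largest change of the second list was that of rbcL, the large subunit of Rubisco, at 0.87 ± 0.19 (limma adjusted p = 0.120), close to that of accD. The lists are short, and the first consists mainly of members.

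Along the plastid chromosome, rpoB, rpoC1, rpoC2 and rps2 follow each other in the gene table. Next to rpoC2 in this order, rps2, a gene of the small ribosomal subunit, had 9.77, 10.47 and 10.02 in pam48 and 9.28, 9.42 and 9.26 in wild type. Its change was 0.77 ± 0.19 (limma adjusted p = 0.155), and the genotypes did not overlap. The next gene, atpI of the ATP synthase, changed by 0.08 ± 0.22, and petN of the cytochrome b6f complex, on the other side of rpoB, by 0.31 ± 0.28. Beyond petN, psbM of photosystem II was at 0.17 ± 0.12. All 3 overlapped between the genotypes, and the probe set of atpI, like that of rpoB, was among the dimmest 40%. In this order the change was 0.30 at the dim rpoB, where the genotypes overlapped. It was largest at rpoC1 (2.29) and smaller at rpoC2 (1.13) and rps2 (0.77). Which part of each gene its probes cover was not analysed here.

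**Figure D4:**
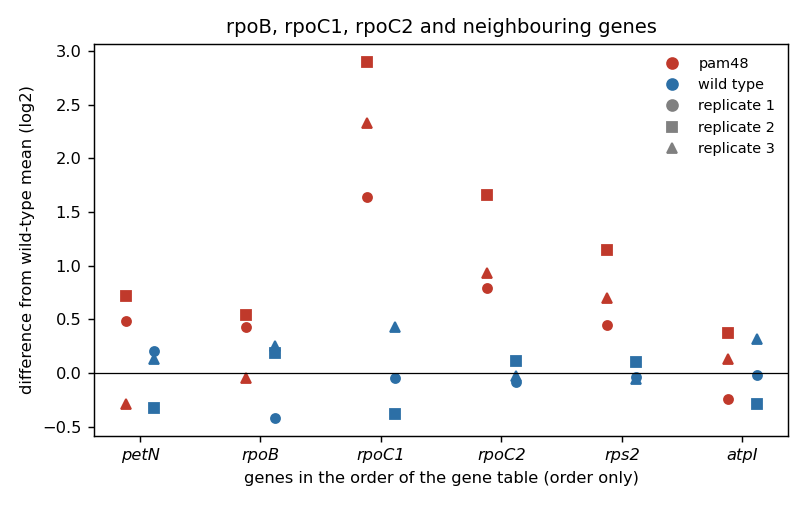
Values of rpoB, rpoC1, rpoC2 and their measured neighbours on each array as differences from the wild-type mean (log2), in gene order without distances, pam48 in red to the left of wild type in blue. The pam48 arrays lie above all wild-type arrays for rpoC1, rpoC2 and rps2, with changes of 2.29, 1.13 and 0.77, and overlap with them for petN, rpoB and atpI.

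The neighbours of the other members had changes of various sizes. Beside accD, rbcL stood at 0.87 ± 0.19 and atpB, of the ATP synthase, at −0.28 ± 0.10, while psaI, a small subunit of photosystem I, was at 0.39 ± 0.19 and ycf4, an assembly factor of photosystem I, at 0.64 ± 0.14. Limma called 0 of these 4, of which 3 had an unadjusted p under 0.05. Of the 3, rbcL and ycf4 were higher in pam48 and atpB was lower. An unadjusted limma p under 0.05 with a higher mean in pam48 was found for 46.4% of the plastid-encoded genes and 6.79% of all probe sets. Beside matK, rps16, which encodes a ribosomal protein of the small subunit, rose by 1.33 ± 0.18 (limma adjusted p = 0.0410), whereas psbA and psbK, of photosystem II, were at 0.26 ± 0.21 and −0.19 ± 0.21. Next to clpP, the photosystem II genes psbB and psbT were at −0.15 ± 0.16 and −0.13 ± 0.22. Near rpoA, the ribosomal protein gene rpl36 was at 0.59 ± 0.15, and petD and petB of the cytochrome b6f complex were at 0.13 ± 0.19 and 0.21 ± 0.10. The probe set of petD was also among the dimmest 40%.

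By the root mean square difference between profiles over the 6 arrays, each taken about its own mean, rpoC1 was most like rpl20 (0.28) and ycf3 (0.43), where the median distance of rpoC1 to all plastid genes was 1.05. The profile of rpoC2 was nearest to rpl14 (0.11) and ndhE (0.14), and that of matK to rps2 and ndhG (0.12 each). The nearest to accD were rbcL (0.13) and ndhD (0.16), and the nearest to clpP were rpl22 and ycf4 (0.11 each). The profile of rpoA was nearest to rps3 (0.16) and psbZ (0.17), and that of rpoB to psbD and petD (0.17 each). No member had another member as 1 of its 2 nearest genes, and rpoC1 was 0.66 from rpoC2, its nearest member. The distances include the size of the change between the genotypes, and rpl20 (2.09) and ycf3 (2.04) had the largest changes after rpoC1 (2.29). How often other sets of 7 plastid genes would lack each other among their nearest genes was not examined. These distances describe 6 arrays and carry no test.

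Nuclear genes of the same processes were thinly covered. Of 22 nuclear genes of plastid transcription, among them the sigma factors and the proteins associated with the bacterial-type polymerase, 1 had a probe set with 1 listed gene. It was AT5G15700, a phage-type RNA polymerase, with 6.27, 6.49 and 6.45 in pam48 and 5.80, 6.15 and 6.06 in wild type, and it was not called (change 0.40 ± 0.13, limma adjusted p = 0.259). A further 32 nuclear genes, counted as partner genes, are of the plastid acetyl-CoA carboxylase, the Clp protease or plastid intron splicing. Of these, 12 were measured, and limma called 1 higher and 0 lower, where 0.778% of all probe sets were called in either direction.

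That gene was CAF1, which promotes the splicing of group II introns in plastids. It read 8.75, 8.87 and 8.86 in pam48, against 7.82, 7.99 and 7.61 in wild type. It rose by 1.02 ± 0.13, or 2.03-fold (limma adjusted p = 0.0351), and the call held in 1 of 6 fits that left out an array. The other 3 of 4 measured splicing genes were not called, with CFM3A at 0.44 ± 0.17, AT5G04810 at 0.39 ± 0.25 and OTP70 at −0.01 ± 0.15. Limma called 0 of 5 Clp protease genes, 1 of which had an unadjusted p under 0.05. Their median change was 0.07, with the largest in AT1G09130 (0.28 ± 0.11) and the next lowest p in AT4G25370 (0.17 ± 0.12). For the carboxylase, 3 of 7 listed genes were measured, all of them genes of regulatory proteins that resemble the biotin carrier subunit, and the genes of the nuclear-encoded catalytic subunits were not among them. Limma called 0 of the 3 and 0 had an unadjusted p under 0.05, with changes between −0.33 and −0.16 and the lowest p in AT1G52670 (−0.33 ± 0.19) and AT3G56130 (−0.21 ± 0.13).

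**Figure D5:**
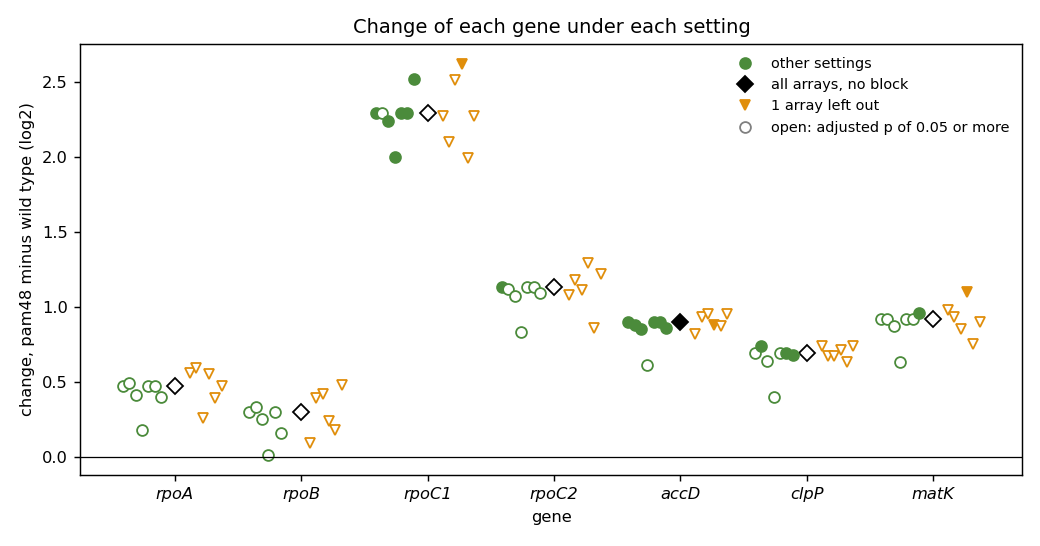
Change of each gene, pam48 minus wild type on the log2 scale, in the fit with all arrays (black), in fits with 1 array left out (orange) and under 7 other settings (green, 6 for rpoB); filled markers were called. All changes were above 0, those of rpoC1 lay between 1.99 and 2.62, and calls came and went for accD, rpoC1, rpoC2, clpP and matK.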

How the data were processed

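The authors deposited a table with a log2 value for each probe set on each of 6 arrays, summarised by RMA per the submitters' processing notes. Its version and probe set definition are not given in the sources used, and the log2 scale was read from the values. The cRNA came from 5 µg of total RNA per array and was labelled with biotin, per the labels' protocols. The number of arrays limits the precision, and scanner intensities were not used.

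Of 22810 rows, 64 were controls. In GEO's platform annotation 13513 probe sets had 1 gene, 503 had several and 8730 had none, and 13436 of the first were found in the TAIR10.1 gene table, which served for names, chromosome and gene order only. Where a gene had several probe sets, that of highest mean stood for it. The main test was that of limma 3.58.1 under R 4.3.3 (lmFit, eBayes, two-sided). In a simulation of this comparison with 22746 probe sets, 200 of them changed, all drawn from those above the median level. It found 46.0% of log2 changes of 1, beside 2 false calls, and 93.5% of log2 changes of 2, beside 8. The simulated noise was independent and normal, with nothing shared within an array or a replicate number. These shares therefore need not hold for the real arrays or for a dim probe set such as that of rpoB. Nothing says that replicates came from separate plants beyond the word biological in the labels, so p-values measure the spread between these samples.

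Replicate numbers are shared by the genotypes. After subtraction of genotype means, same-numbered arrays correlated with 0.535, 0.204 and 0.536. A pairing by replicate number is thus read from the data and not from a statement in the labels. The main fit did not use it, so its standard errors, p-values and calls leave the pairing out. The block was an alternative, beside quantile normalization, centring on the array median or on the plastid median, leaving out the dimmest 40%, trend and robust settings, array weights and leaving out each array. Named genes were all members, plastid genes within 2 loci, the 2 nearest profiles, and of each list the called genes or the 2 of lowest p; CFM3A, AT5G04810, OTP70, CLV3, FMA and PYK10 were named beside them after their values were seen. The members and lists were chosen with earlier results of these data known.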

Additional observations from a re-analysis of the deposited data

How the results depend on the processing

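Changes of the 7 genes stayed above 0 under all settings, but that of rpoB was only 0.01 with plastid centring and 0.09 without wild type replicate 1, and 0.48 without pam48 replicate 3, against 0.30. Plastid centring also lowered rpoA to 0.18 and clpP to 0.40, against 0.47 and 0.69, and without wild type replicate 3 rpoA was 0.26. Values are changes with the limma adjusted p in parentheses. The call of accD ended with plastid centring (0.61, adjusted p = 0.362). That of rpoC1 was gained with the replicate block (2.29), median centring (2.24), plastid centring (2.0), without the dimmest 40% (2.29), with trend and robust settings (2.29) and with array weights (2.52), with adjusted p between 0.0154 and 0.0471. Also gained were rpoC2 with the replicate block (1.13, adjusted p = 0.0447), clpP with quantile normalization (0.74), trend and robust settings (0.69) and array weights (0.68), and matK with array weights (0.96). Leaving out 1 array gave 0.82 to 0.95 for accD, 1.99 to 2.62 for rpoC1 and 0.75 to 1.10 for matK, the last 2 called without pam48 replicate 1.

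Members called were 1, but 3 with the replicate block, 2 with quantile normalization, median centring or without the dimmest 40%, 3 with trend and robust settings, 4 with array weights, 0 at an adjusted p under 0.01 or at least 2-fold, and 0 to 3 without 1 array (0 without any array other than pam48 replicate 1). With plastid centring the 1 member called was rpoC1 and not accD. All probe sets called were 177 (136 higher, 41 lower), but 412 with the replicate block (239 and 173), 79 with plastid centring (21 and 58, as the median of all probe sets then moves to −0.32), 351 with array weights and 1 to 291 without 1 array. Plastid genes called were 8, but 3 with plastid centring, 13 with array weights and 0 to 12 without 1 array; partner genes called were 1, but 0 with plastid centring and 0 to 1 without 1 array. CAF1 was not called with plastid centring (0.73, adjusted p = 0.292). Without 1 array the change of rpoB minus that of rpoA spanned −0.47 to 0.17, that of accD minus matK −0.22 to 0.12, and the mean of rpoB, rpoC1, rpoC2 and accD minus that of rpoA and matK 0.30 to 0.70. The cause was not tested. The pairing by replicate number changed no other call of a member or of a pair of genes.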

Other observations

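Introns were looked at after the values of the members had been seen, with a list of 12 protein-coding plastid genes known to hold an intron, of which 9 were measured. Among the members rpoC1 and clpP are on this list, with changes of 2.29 and 0.69, and matK lies inside an intron. The other measured genes were ycf3 (2.04 ± 0.14), rps16 (1.33 ± 0.18), rpl16 (1.01 ± 0.14), atpF (0.63 ± 0.25), ndhA (0.61 ± 0.14), petB (0.21 ± 0.10) and petD (0.13 ± 0.19). All 9 had positive changes, with a median of 0.69, and limma called 3 of them, ycf3, rps16 and rpl16. Over the other 60 plastid genes the median was 0.33, with 51 positive changes, and limma called 5. Changes were positive in 87.0% of all 69 plastid-encoded genes and 44.7% of all probe sets, and 11.6% and 0.598% were called higher. The list was chosen after the values were seen and gets no test. Whether the probes lie in exons or introns was not analysed here.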
